A study of Mus musculus with 12 samples.

Results

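Genes of the articular surface and its superficial zone were followed across chondrocytes labelled as lacking 1 or both PHLPP phosphatases. The group held 9 genes, Prg4, Abi3bp, Cilp, Cilp2, Vit, Clu, Tppp3, Erg and Creb5, taken by symbol from a table of 49315 genes, and each symbol matched a single row. All 9 passed the filter on low counts that left 16565 genes for testing. No member was called in any knockout against wild type (WT) by edgeR's quasi-likelihood test. Prg4, which encodes lubricin, averaged 96.3 CPM (counts scaled to the library total) in the Phlpp1 knockout and 148 CPM in WT, and it was called there by DESeq2 but not by edgeR.

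Articular cartilage is the permanent cartilage of the joint surface, and it arises from cells of the embryonic joint site, apart from the transient cartilage that the growth plate turns into bone. Its outermost cells, the superficial zone, secrete lubricin into the joint fluid and form a matrix that differs from that of the deeper zones. PHLPP1 and PHLPP2 are phosphatases that act on AKT, among other kinases, and in cartilage they have been studied for their part in growth and in joint degeneration.

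RNA came from primary epiphyseal chondrocytes of 5-day-old mice labelled female, in 4 genotypes with 3 samples each: Phlpp1 KO (Phlpp1-/-), Phlpp2 KO (Phlpp2-/-), Phlpp1/2 KO (Phlpp1/2-/-) and WT. All cells were released with collagenase, stored frozen and, after thawing, kept overnight on plates in serum-containing medium, so every group shared a period in culture. The strain entry is C57BL6 for WT, Phlpp1 KO and 2 Phlpp2 KO samples, C57BL7 for Phlpp2 KO 3, and C57BL8, C57BL9 and C57BL10 for Phlpp1/2 KO 1, 2 and 3. The labels do not say which part of either gene was removed, in which cells, or how many animals gave a sample, so p-values measure only the spread between these samples.

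Library totals ran from 21706337 to 33115345 counts, and 1 count was worth 0.0295 to 0.0453 CPM. Phlpp1 was 8.77 to 9.46 CPM in the Phlpp1 KO and 7.71 to 8.83 CPM in the Phlpp1/2 KO, against 35.1 to 43.8 CPM in WT. Phlpp2 was 16.8 to 19.4 CPM in the Phlpp2 KO and 10.2 to 11.4 CPM in the Phlpp1/2 KO, against 22.4 to 28.1 CPM in WT. By edgeR the log2 fold change of Phlpp2 was −0.52 (adjusted p = 0.0607) in the Phlpp2 KO and −1.22 (adjusted p = 2.98e-05) in the Phlpp1/2 KO, so the Phlpp2 KO samples kept most of the transcript count, and without the removed part being known this checks the label only in part. The cartilage collagen Col2a1 was 20753 to 40258 CPM in every library, so the cells carried the defining transcript of chondrocytes. Xist was low in Phlpp1 KO 1 (13.9 CPM) and Phlpp1/2 KO 1 (3.77 CPM), against at least 278 CPM in the other libraries, and Phlpp1/2 KO 1 also carried 109 CPM of Y-linked genes. The Y-linked genes stand against the label of female for Phlpp1/2 KO 1. Phlpp1 KO 1 had 0 CPM of them, so its low Xist alone does not settle its sex.

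Promoter sequences, 250 bases before to 50 bases after a RefSeq start site (GRCm38.p6), were at hand for 4 of the 9 genes, Cilp, Cilp2, Creb5 and Erg, as 7 promoters. The stretches below show the promoter of Creb5, whose protein belongs to the family that binds the cyclic AMP response element, and those of the paralogs Cilp and Cilp2, whose levels varied together within genotypes. Capitals mark matches to the motifs searched on both strands. These were the full response element TGACGTCA, its shorter core TGACG (which lies inside it), an AP-1 site TGANTCA, an ETS core CCGGAA and a TEAD core GGAATG.
Creb5, upstream start site, chr6:53287053-53287352, plus strand: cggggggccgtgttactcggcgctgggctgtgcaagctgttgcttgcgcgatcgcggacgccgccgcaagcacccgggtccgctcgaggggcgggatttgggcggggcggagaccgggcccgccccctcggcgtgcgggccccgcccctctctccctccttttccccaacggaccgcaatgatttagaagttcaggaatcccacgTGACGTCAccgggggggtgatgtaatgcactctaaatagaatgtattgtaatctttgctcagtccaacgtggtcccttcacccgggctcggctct
Cilp, chr9:65264930-65265229, plus strand: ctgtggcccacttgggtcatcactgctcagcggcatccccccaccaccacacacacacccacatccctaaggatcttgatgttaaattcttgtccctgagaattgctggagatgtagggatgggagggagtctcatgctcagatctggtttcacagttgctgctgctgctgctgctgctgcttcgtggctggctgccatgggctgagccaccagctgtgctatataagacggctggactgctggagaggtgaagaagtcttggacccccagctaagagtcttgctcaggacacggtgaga
Cilp2, chr8:69887343-69887642, minus strand: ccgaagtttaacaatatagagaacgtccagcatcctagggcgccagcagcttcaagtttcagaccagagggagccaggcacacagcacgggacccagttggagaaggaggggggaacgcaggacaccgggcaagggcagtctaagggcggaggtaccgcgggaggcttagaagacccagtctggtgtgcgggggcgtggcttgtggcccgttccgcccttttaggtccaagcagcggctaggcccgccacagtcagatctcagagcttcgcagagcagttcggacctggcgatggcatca

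The Creb5 stretch held the full element, which begins 45 bases before the start site, and 1.79% of 32851 promoters of the same length held it. The core TGACG, within the full element or outside it, was in 20.8% of them. The second Creb5 promoter held an AP-1 match, found in 7.81% of promoters, and a TEAD match, found in 14.7%. Of the 3 Erg promoters, 2 held a TEAD match. The Cilp and Cilp2 stretches held none of the 5 motifs, which says only that these letters are not in these windows. The ETS core was in 14.9% of all promoters and in none of the 7.

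Per kilobase of exon, which allows levels to be compared between genes, Prg4 stood first in every genotype. In WT it was 34.6 ± 7.94 CPM per kb (SD, n = 3). Clu, a secreted chaperone, followed at 12.8 ± 1.12 CPM per kb, and Erg, an ETS-family transcription factor of joint-forming cells, at 7.30 ± 1.59 CPM per kb. Cilp2 (2.51 ± 0.499), Cilp (2.305 ± 1.52) and Abi3bp (2.19 ± 0.227 CPM per kb) came next, and their ranges over the WT libraries overlapped. The ranges of Tppp3 (1.03 ± 0.361) and Vit (0.771 ± 0.364 CPM per kb) overlapped too. Creb5 was last at 0.282 ± 0.0164 CPM per kb, over an exon length of 25021 bases that lowers this value. Averaged over all 12 libraries, Prg4 lay at percentile 88.3 of the tested protein-coding genes by CPM per kb, and Creb5 at percentile 11.0.

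**Figure D1:**
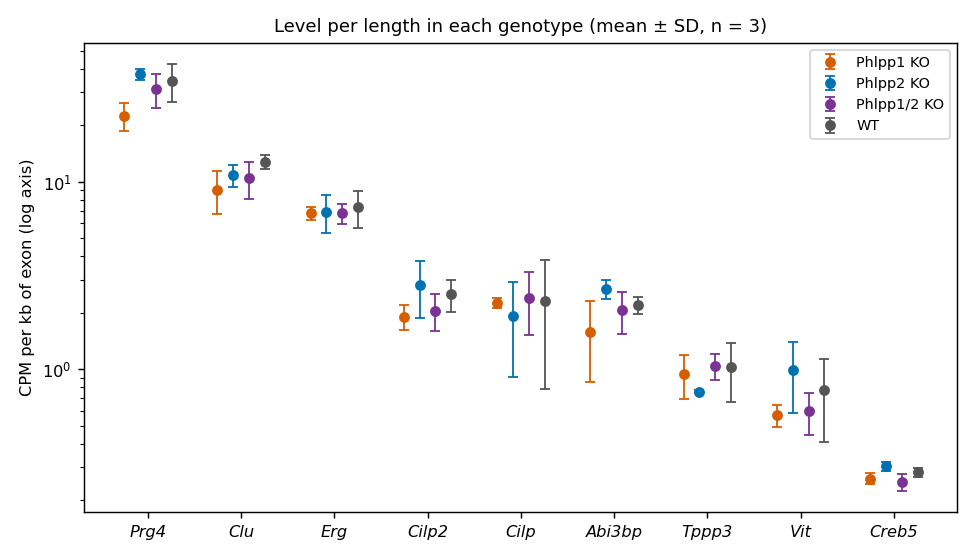
Mean level per length of the 9 genes (CPM per kb of exon, log axis) in Phlpp1 KO, Phlpp2 KO, Phlpp1/2 KO and WT chondrocytes; points are means and bars SD over 3 samples. Prg4 leads in each genotype, at 34.6 CPM per kb in WT, and Creb5 is last at 0.282 CPM per kb in WT.

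The lubricant gene came first among the comparisons with WT. Prg4 (ENSMUSG00000006014, chromosome 1, 150449412 to 150466165, mm10) encodes the glycoprotein that coats the joint surface and lowers friction. Its level was 80.7, 95.1 and 113 CPM in Phlpp1 KO 1, 2 and 3, against 109, 166 and 169.5 CPM in WT 1, 2 and 3. It was 173, 151 and 158 CPM in the Phlpp2 KO and 159.9, 105 and 136 CPM in the Phlpp1/2 KO. Phlpp1 KO 1 and 2 lay below all 3 WT libraries, and the groups overlapped because WT 1 was below Phlpp1 KO 3.

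In the Phlpp1 KO against WT, the log2 fold change of Prg4 was −0.62 (SE 0.19, 95% confidence interval −1.05 to −0.20). Its adjusted p was 0.121 in edgeR, adjusted by Benjamini-Hochberg over 16565 genes. DESeq2 gave a like change of −0.62 (SE 0.18) and an adjusted p of 0.0195. DESeq2 called 7.99% of the 12484 genes to which it gave an adjusted p in this comparison, 3.1% as lower, and edgeR called 0.537% of 16565. Without WT 1 the edgeR change was −0.78 (adjusted p = 0.105). It was −0.49 (adjusted p = 0.241) once the pair of low-Xist libraries was left out. Fewer cells of a type and less RNA per cell cannot be told apart in these bulk samples.

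**Figure D2:**
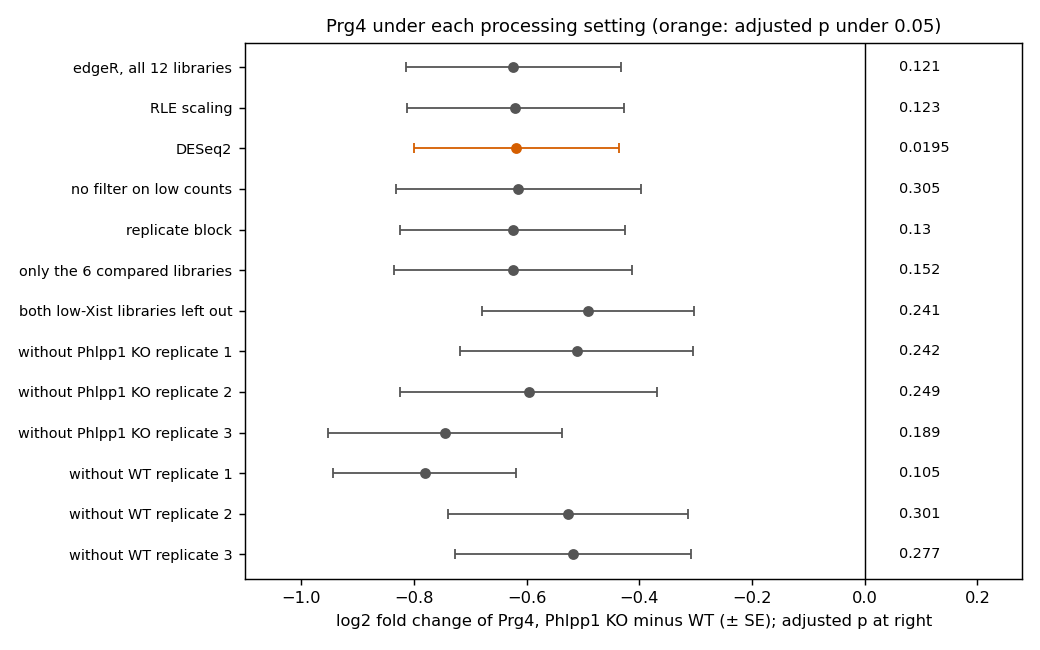
Log2 fold change of Prg4, Phlpp1 KO minus WT (horizontal axis, bars SE), under each processing setting, with adjusted p printed at right. All values lie between −0.78 and −0.49, and the DESeq2 value alone is past 0.05 (adjusted p = 0.0195).

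Prg4 was 0.12 (SE 0.19, adjusted p = 0.830) in the Phlpp2 KO and −0.15 (SE 0.19, adjusted p = 0.822) in the Phlpp1/2 KO against WT, on the log2 scale of edgeR's quasi-likelihood test. Phlpp1/2 KO libraries stood above those of the Phlpp1 KO by 0.47 (SE 0.19, unadjusted p = 0.0307, adjusted p = 0.626, edgeR), with overlapping samples. The low-Xist libraries lie 1 in each of these groups, and without both the value was 0.21 (SE 0.20, adjusted p = 0.948, edgeR). The interaction, the log2 change of the Phlpp1/2 KO minus the sum of those of both single knockouts, was 0.36 for Prg4 (SE 0.27, adjusted p = 0.594, edgeR), and 0.0740 (SE 0.26, adjusted p = 0.966) without both low-Xist libraries. It was 0.21 without Phlpp1/2 KO 1 alone. Prg4 lies 44.1 Mb from Phlpp1 on chromosome 1. Its exons overlap those of Tpr on the opposite strand by 204 bases, 4.77% of its exon length, and with the strand setting not given the reads of that stretch cannot be assigned to either gene.

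Clu (ENSMUSG00000022037, chromosome 14, 65968483 to 65981547) encodes clusterin, an extracellular chaperone found at the cartilage surface. It was 25.1, 28.1 and 40.2 CPM in Phlpp1 KO 1, 2 and 3, against 41.3, 48.3 and 42.1 CPM in WT 1, 2 and 3. All 3 Phlpp1 KO libraries were below all 3 WT libraries, the third by a narrow margin. The log2 fold change was −0.50 (SE 0.20, unadjusted p = 0.0267, adjusted p = 0.184, edgeR). In the Phlpp2 KO Clu was 34.6, 43.1 and 34.5 CPM, and in the Phlpp1/2 KO 40.0, 26.6 and 41.3 CPM. Both groups overlapped WT, at log2 fold changes of −0.23 and −0.29 (adjusted p = 0.649 and 0.618, edgeR).

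Among matrix genes, Abi3bp (ENSMUSG00000035258, chromosome 16, 56477878 to 56690135), a secreted matrix protein, split the Phlpp1 KO samples. It was 9.02, 8.28 and 17.98 CPM in Phlpp1 KO 1, 2 and 3, against 14.3, 17.3 and 17.2 CPM in WT 1, 2 and 3. Phlpp1 KO 3 was thus above every WT library while Phlpp1 KO 1 and 2 were below. The log2 fold change was −0.48 (SE 0.28, adjusted p = 0.366, edgeR). It was −0.26 without Phlpp1 KO 2 and −0.90 without Phlpp1 KO 3. In the Phlpp2 KO Abi3bp was 17.6, 22.2 and 20.1 CPM, above all 3 WT libraries, and its log2 fold change there was 0.30 (SE 0.27, adjusted p = 0.677, edgeR). The Phlpp1/2 KO samples had 17.7, 10.9 and 17.4 CPM and overlapped WT.

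Cilp (ENSMUSG00000042254, chromosome 9, 65265180 to 65280605), the cartilage intermediate layer protein, varied most of the 9 genes, relative to its mean, within WT, the Phlpp2 KO and the Phlpp1/2 KO. In the Phlpp1 KO it varied least, with an SD of 6.29% of its mean. It was 8.92, 9.89 and 10.03 CPM in the Phlpp1 KO, 8.32, 3.77 and 12.3 CPM in the Phlpp2 KO and 12.6, 12.3 and 5.94 CPM in the Phlpp1/2 KO, against 3.35, 9.80 and 16.2 CPM in WT. WT alone spanned the lowest and the highest value of the 12 libraries, 4.85-fold apart. The biological coefficient of variation of Cilp was 0.441, at percentile 99.2 of the tested genes. Its 95% confidence intervals against WT were accordingly wide, from −1.19 to 1.11 in the Phlpp1 KO.

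Its paralog Cilp2 (ENSMUSG00000044006, chromosome 8, 69880369 to 69887687) was 7.37, 7.72 and 9.64 CPM in the Phlpp1 KO, 13.6, 7.51 and 15.3 CPM in the Phlpp2 KO and 10.7, 9.09 and 6.82 CPM in the Phlpp1/2 KO, against 8.92, 10.4 and 13.2 CPM in WT. Every knockout overlapped WT. The log2 fold changes were −0.40 (SE 0.26), 0.16 (SE 0.25) and −0.29 (SE 0.25) in the same order, with adjusted p values of 0.413, 0.822 and 0.722 by edgeR.

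Vit (ENSMUSG00000024076, chromosome 17, 78508064 to 78627408) encodes vitrin, a matrix protein, and stood on 26 to 120 counts per library. It was 1.65, 1.74 and 2.12 CPM in the Phlpp1 KO, 3.04, 1.99 and 4.60 CPM in the Phlpp2 KO and 2.48, 1.77 and 1.54 CPM in the Phlpp1/2 KO, against 1.18, 2.85 and 3.44 CPM in WT. WT 1 was the lowest of the 12 libraries and Phlpp2 KO 3 the highest. The 3 adjusted p values against WT were 0.530, 0.722 and 0.746 by edgeR.

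Tppp3 (ENSMUSG00000014846, chromosome 8, 105467493 to 105471526), a tubulin-binding protein known as a marker of tendon sheath cells, lies 4.40 Mb from Phlpp2. It was 1.37, 1.42 and 1.42 CPM in the Phlpp2 KO, against 1.49, 2.67 and 1.53 CPM in WT. The 3 Phlpp2 KO libraries were below all 3 WT libraries, on 37 to 43 counts against 33 to 74 counts. The log2 fold change was −0.44 (SE 0.26, adjusted p = 0.489, edgeR). Without WT 2, the highest library, it was −0.0953 (adjusted p = 0.922, edgeR). The Phlpp1/2 KO, which by label also lacks Phlpp2, had 1.93, 2.23 and 1.62 CPM, above all 3 Phlpp2 KO libraries (log2 fold change 0.46, SE 0.26, adjusted p = 0.613, edgeR) and overlapping WT. The Phlpp1 KO had 1.21, 2.004 and 1.998 CPM and overlapped WT too.

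The 2 transcription factors had the smallest fold between their highest and lowest library, 1.60 for Erg and 1.42 for Creb5. Erg (ENSMUSG00000040732, chromosome 16, 95359169 to 95586593) averaged 23.5 ± 1.94 CPM in the Phlpp1 KO, 24.01 ± 5.44 CPM in the Phlpp2 KO and 23.5 ± 2.96 CPM in the Phlpp1/2 KO, against 25.3 ± 5.53 CPM in WT (SD, n = 3 each). Its log2 fold changes against WT were −0.11, −0.08 and −0.11, each with SE 0.18 and 95% confidence intervals within −0.50 and 0.31. Genotype accounted for 2.88% of the variance of its log2 CPM. Erg is also an endothelial gene. The 9 endothelial markers examined (Pecam1, Cdh5, Kdr, Tie1, Tek, Emcn, Cldn5, Esam and Egfl7) were all detected but low. Their summed level was 6.26 to 18.3 CPM in the Phlpp1 KO, 9.32 to 17.04 CPM in the Phlpp2 KO and 10.4 to 15.1 CPM in the Phlpp1/2 KO, against 8.37 to 11.9 CPM in WT. All 9 had log2 fold changes above 0 in the Phlpp2 KO (median 0.51, 0 calls). In the Phlpp1 KO 6 were above 0 and 3 below (median 0.12, 0 calls). The part of endothelial cells in the Erg values was not tested.

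Creb5 (ENSMUSG00000053007, chromosome 6, 53287270 to 53700376), whose protein raises Prg4 expression in bovine articular chondrocytes, ran from 5.60 to 7.96 CPM, the smallest fold between highest and lowest library among the 9 genes. It averaged 6.53 ± 0.429 CPM in the Phlpp1 KO, 7.59 ± 0.397 CPM in the Phlpp2 KO and 6.25 ± 0.618 CPM in the Phlpp1/2 KO, against 7.06 ± 0.409 CPM in WT (SD, n = 3 each). Log2 fold changes against WT were −0.11, 0.10 and −0.18 (SE 0.11 each), with adjusted p values of 0.605, 0.720 and 0.580 by edgeR. All 3 Phlpp1/2 KO libraries were below all 3 Phlpp2 KO libraries (−0.28, SE 0.11, unadjusted p = 0.0224, adjusted p = 0.520, edgeR). A small nuclear RNA gene, Gm25818, overlaps the exons of Creb5 over 164 bases.

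**Figure D3:**
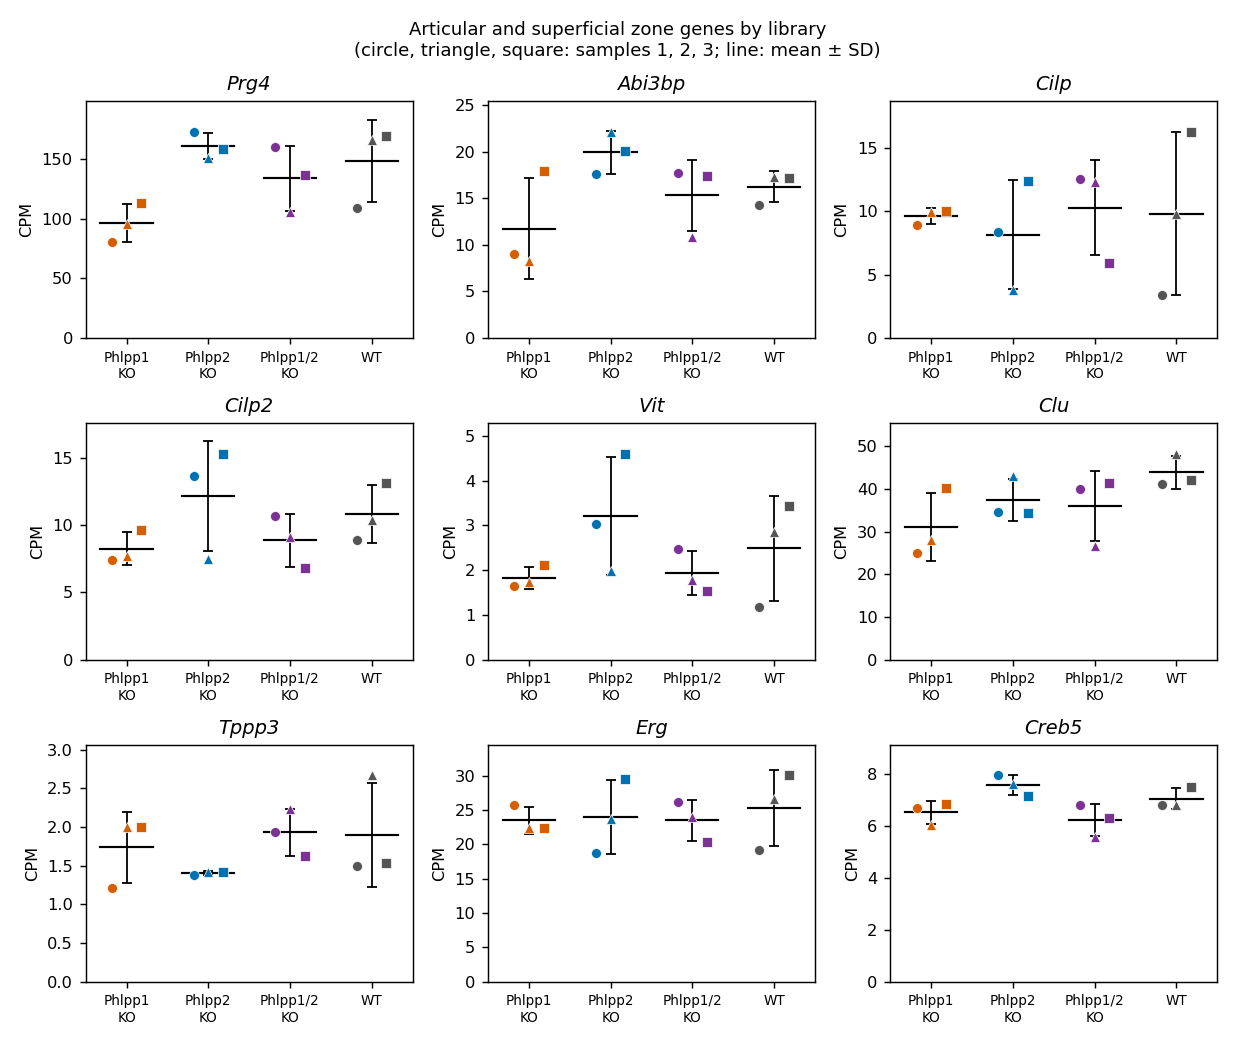
CPM of each gene in every library, by genotype (Phlpp1 KO, Phlpp2 KO, Phlpp1/2 KO, WT); symbols mark samples 1 to 3, the line is the mean and the bar the SD. Prg4 is 80.7 to 113 CPM in the Phlpp1 KO and 109 to 169.5 CPM in WT, and WT 1 is the lowest WT library for 8 of the 9 genes.

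Over the 9 genes, the Phlpp1 KO against WT gave 0 calls by edgeR, where 0.537% of all tested genes were called, and 1 call by DESeq2, Prg4. At an unadjusted p under 0.05 there were 2 of 9, Prg4 and Clu, against 20.4% of all genes. The groups did not overlap for 1 of 9, Clu, against 28.2% of all genes in either direction and 13.3% in that of Clu. The log2 fold change was below 0 for all 9, with a median of −0.40, against 52.3% and a median of −0.01 over all tested genes. These 9 values share libraries and are not independent, and the genes were chosen with earlier results of these data known. The median was −0.23 without WT 3 and −0.26 without Phlpp1 KO 2. Without both low-Xist libraries it was −0.30, and Cilp and Tppp3 turned positive.

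The Phlpp2 KO against WT gave 0 calls of 9 by edgeR and by DESeq2, where edgeR called 0.121% and DESeq2 2.41% of genes, and 0 at an unadjusted p under 0.05, against 13.8%. The groups did not overlap for 2 of 9, Abi3bp and Tppp3, against 19.1% of all genes. Of all genes 10.3% were separate and higher, as Abi3bp was, and 8.87% separate and lower, as Tppp3 was. The log2 fold change was above 0 for 5 genes and below 0 for 4, with a median of 0.10, against 53.9% below 0 and a median of −0.02 over all tested genes. Without WT 1 the median was −0.04, and without Phlpp2 KO 3 it was −0.03.

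The Phlpp1/2 KO against WT gave 0 calls of 9 by edgeR and by DESeq2, where edgeR called 0.235% and DESeq2 1.06% of genes, and 0 at an unadjusted p under 0.05, against 11.1%. No gene of the 9 had groups that did not overlap, against 18.9% of all genes. Of the log2 fold changes 7 were below 0, with a median of −0.15, against 50.4% and a median of −0.001 over all tested genes. Without WT 1 all 9 were below 0 and the median was −0.32, while it was −0.0676 without WT 2 and −0.0940 without WT 3. It was −0.23 without both low-Xist libraries and −0.24 without Phlpp1/2 KO 1. All 3 comparisons share the WT libraries, so their values are not independent of each other.

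**Figure D4:**
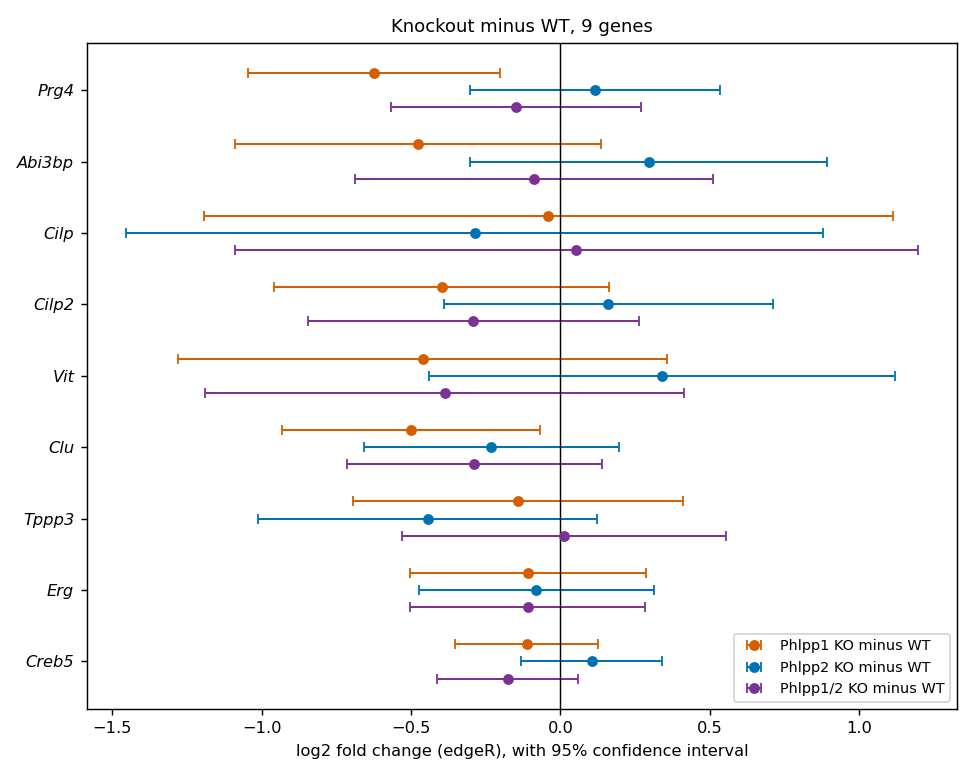
Log2 fold change of each gene against WT (horizontal axis; bars are 95% confidence intervals) for Phlpp1 KO, Phlpp2 KO and Phlpp1/2 KO. The unadjusted intervals of Prg4 and Clu in the Phlpp1 KO lie below 0, and all others include it.

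The Phlpp1/2 KO was also set against each single knockout. Against the Phlpp1 KO, edgeR and DESeq2 called 0 of 9 genes, where edgeR called 0.0121% and DESeq2 0.103% of genes. Prg4 had an unadjusted p under 0.05, against 7.9% of all genes, and no gene had groups that did not overlap, against 13.2%. Against the Phlpp2 KO, 0 of 9 were called by either tool, where edgeR called 0.0724% and DESeq2 0.2% of genes. Creb5 had an unadjusted p under 0.05, against 8.84% of all genes, and Creb5 and Tppp3 had groups that did not overlap, against 12.4%. Separate and lower groups, as for Creb5, were found in 4.9% of all genes, and separate and higher ones, as for Tppp3, in 7.52%. The interaction gave 0 of 9 by either tool and 0 at an unadjusted p under 0.05, where edgeR called 0.0483% and DESeq2 4.84% of genes and 14.5% had such a p in edgeR.

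Sample WT 1 was the lowest WT library for 8 of the 9 genes, all but Creb5. For Clu (41.3 against 42.1 CPM) and Tppp3 (1.49 against 1.53 CPM) it was only narrowly below WT 3. The share of all tested genes that were lowest in WT 1 was not worked out. WT 1 also had the smallest library total, 21706337 counts. The summed tendon and ligament markers (Scx, Tnmd, Mkx, Fmod, Thbs4 and Kera) were 216 CPM in WT 1, against 377 and 401 CPM in WT 2 and WT 3. Fmod made up most of this sum, with a WT mean of 280 CPM against 331 CPM for the whole list. The WT libraries spanned 168 to 348 CPM of Fmod but only 29.2 to 31.0 CPM of the tendon factor gene Scx. The summed fibroblast and synovium markers were 1098 CPM in WT 1, against 1288 and 1455 CPM. The chondrocyte markers were lowest in WT 1 as well, with a sum of 35693 CPM, against 43512 and 53377 CPM in WT 2 and WT 3. The macrophage markers were highest in WT 1, at 59.5 CPM against 55.9 and 53.3 CPM. The part of any of these cell types in the low values of WT 1 was not tested. In the knockouts no library was lowest for more than 6 of the 9 genes, and Phlpp1 KO 3 and Phlpp1/2 KO 1 were highest of their genotype for 7 each.

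Correlations among the 9 genes were mostly positive. Of 36 pairs, 29 had a positive Pearson correlation of log2 CPM over the 12 libraries (median r = 0.35). After Benjamini-Hochberg adjustment of a permutation test (two-sided, 100000 resamples), 3 pairs passed. Cilp2 and Vit had r = 0.86 (p = 0.00034, adjusted p = 0.0122) and Spearman's rho = 0.89 (p = 0.00033, adjusted p = 0.0119, permutation test). Without Phlpp2 KO 1 and 3, the libraries farthest from the median of Cilp2, r was 0.76 (p = 0.01095, adjusted p = 0.168, permutation test), so the pair no longer passed.

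Prg4 and Abi3bp had r = 0.83 (p = 0.0009, adjusted p = 0.0162) but rho = 0.55 (p = 0.0730, adjusted p = 0.202, permutation test). Abi3bp and Clu had r = 0.81 (p = 0.00374, adjusted p = 0.0449) and rho = 0.43 (p = 0.169, adjusted p = 0.380, permutation test). Without Phlpp1 KO 1 and 2, r was 0.64 (adjusted p = 0.168) for the first pair and 0.60 (adjusted p = 0.306) for the second, and neither passed. Prg4 and Creb5 had r = 0.64 (p = 0.0258, adjusted p = 0.0997) and rho = 0.68 (p = 0.0187, adjusted p = 0.124, permutation test).

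Within genotypes, where each value is taken as its deviation from the mean of its own 3 samples, 3 pairs passed the permutation test. They were Cilp and Vit (r = 0.95, p = 0.0008, adjusted p = 0.0144), Cilp and Cilp2 (r = 0.85, p = 0.0008, adjusted p = 0.0144) and Cilp2 and Vit (r = 0.83, p = 0.00285, adjusted p = 0.0342). Cilp, Cilp2 and Vit, all genes of secreted matrix proteins, thus varied together between samples of 1 genotype. Over all 12 libraries neither Cilp pair passed the permutation test. With Vit r was 0.63 (adjusted p = 0.0997) and with Cilp2 0.54 (adjusted p = 0.203). Without WT 1 and Phlpp2 KO 2, the libraries farthest from the median of Cilp, these were 0.54 (adjusted p = 0.340) and 0.58 (adjusted p = 0.298). Abi3bp and Clu had r = 0.91 within genotypes, with an adjusted p of 0.140 by the permutation test within genotypes.

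**Figure D5:**
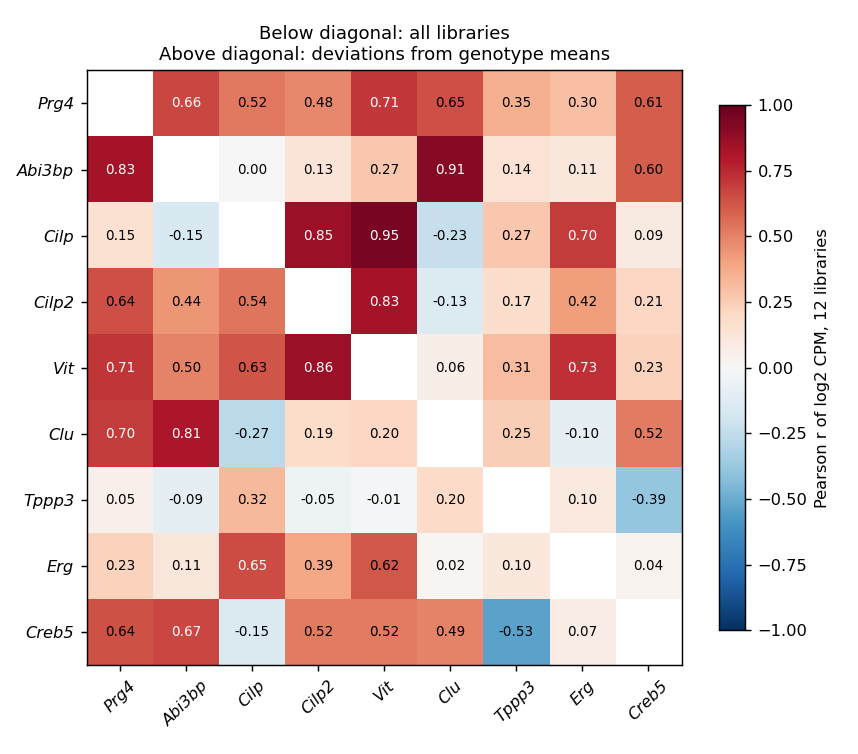
Pearson r of log2 CPM for each pair of the 9 genes over 12 libraries, below the diagonal over all libraries and above it for deviations from genotype means; colour runs from −1 to 1. Cilp, Cilp2 and Vit form 1 block above the diagonal (0.83 to 0.95), and Abi3bp and Clu another pair (0.91).

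The genes whose log2 CPM followed each member most closely over the 12 libraries were sought among 12123 protein-coding genes, and are given as a description. For Clu these were Lcn2 (r = 0.93), Chil1 (r = 0.92) and Lbp (r = 0.91), which encode secreted proteins raised in inflammation, and for Abi3bp they were the complement gene C1ra (r = 0.92), Stac2 (r = 0.91) and Lbp (r = 0.91). For Cilp2 they were the carboxypeptidase gene Cpz (r = 0.90) and the type I collagen genes Col1a1 and Col1a2 (r = 0.88 each), and for Vit the matrix gene Ecm2 (r = 0.94), Cpz (r = 0.92) and Palmd (r = 0.90). Cilp was closest to Hs3st3b1, Col16a1 and Gm26566 (r = 0.87 to 0.88). Erg was closest to Reck, an inhibitor of matrix metalloproteinases (r = 0.95), Rflna (r = 0.93) and Srpx (r = 0.91). Prg4 followed Rgs4, Sept1 and Meox2 (r = 0.87 to 0.88). Creb5 followed Thbs2, Foxo1 and Wdfy1 (r = 0.82 to 0.83), and Tppp3 followed Ctnnbl1, Polr2e and Pfn1 (r = 0.86 to 0.89). All these values share libraries and scaling.

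Other genes of the joint surface gave no call by edgeR's quasi-likelihood test in any knockout against WT. Of 12 genes of the embryonic joint site 11 were tested, with medians of −0.07 in the Phlpp1 KO, −0.09 in the Phlpp2 KO and −0.10 in the Phlpp1/2 KO. Gdf5, a growth factor that marks the joint site, averaged 25.6 ± 0.991 CPM in the Phlpp1/2 KO and 30.98 ± 2.02 CPM in WT (SD, n = 3 each; log2 fold change −0.27, SE 0.13, adjusted p = 0.453, edgeR), and the groups did not overlap. The Wnt antagonist gene Sfrp1 was −0.28 in the Phlpp2 KO (SE 0.12, adjusted p = 0.318, edgeR), and Wnt4 was −0.92 in the Phlpp1 KO (SE 0.42, adjusted p = 0.244, edgeR).

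All 18 regulators of superficial zone cells were tested, with 0 calls. In the Phlpp1 KO the smallest p values belonged to Foxo3, a FOXO factor that AKT holds back (log2 fold change −0.21, adjusted p = 0.117), to Smad3, a signal carrier of TGF-beta (−0.26, adjusted p = 0.121), and to its receptor gene Tgfbr1 (0.29, adjusted p = 0.125, edgeR). In the Phlpp1/2 KO they belonged to Foxo3 (−0.25, adjusted p = 0.204), Foxo1 (−0.25, adjusted p = 0.225) and Tgfbr2 (−0.22, adjusted p = 0.318, edgeR). In the Phlpp2 KO they belonged to Tgfbr1 (0.26, adjusted p = 0.260), Foxo3 (−0.18, adjusted p = 0.265) and Creb1, a relative of Creb5 (0.38, adjusted p = 0.276, edgeR). Creb1 was 0.41 in the Phlpp1 KO (adjusted p = 0.142, edgeR).

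Of 11 genes for hyaluronan, the other lubricant of the joint, and for receptors of lubricin and hyaluronan, 10 were tested and 0 called. The hyaluronan synthase gene Has2 was −0.42 (SE 0.12, adjusted p = 0.231) in the Phlpp1/2 KO against WT and 0.25 (SE 0.12, adjusted p = 0.363) in the Phlpp2 KO, by edgeR. Hmmr, a hyaluronan receptor also used in mitosis, was 0.49, 0.82 and 0.59 in the Phlpp1 KO, the Phlpp2 KO and the Phlpp1/2 KO (adjusted p = 0.195, 0.184 and 0.322, edgeR).

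Relatives of the 2 transcription factors gave a single call. Of 10 CREB, ATF and AP-1 genes, Fos rose in the Phlpp1/2 KO (log2 fold change 0.57, SE 0.10, adjusted p = 0.0390, edgeR), a comparison in which 0.235% of all genes were called. Fos was 0.43 in the Phlpp1 KO (adjusted p = 0.0807) and 0.36 in the Phlpp2 KO (adjusted p = 0.206, edgeR), and in all 3 knockouts every library was above all 3 WT libraries. In the Phlpp1 KO Creb3l1 was −0.48 (SE 0.15, adjusted p = 0.125) and Atf2 was 0.32 (SE 0.099, adjusted p = 0.113, edgeR), and neither overlapped WT. There 4 of the 10 genes were separate and higher and 1 was separate and lower, against 28.2% of all genes in either direction. Of 10 ETS genes 9 were tested with 0 calls, and in the Phlpp1 KO 4 were above 0 and 5 below. Fli1, a close relative of Erg, was −0.24 there (SE 0.09, adjusted p = 0.172), while Gabpa was 0.28 (SE 0.10, adjusted p = 0.164, edgeR).

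The 12 genes of epiphyseal and growth plate cartilage, of which 11 were tested, had 0 calls and medians of 0.08 in the Phlpp1 KO, −0.16 in the Phlpp2 KO and −0.20 in the Phlpp1/2 KO. In the Phlpp1 KO this median was thus above 0 while that of the 9 articular genes was −0.40, and the difference between the lists was not tested. The fibroblast and synovium markers had 7 of 9 genes below 0 in the Phlpp1 KO (median −0.39) with 0 calls. Their sum was 983 to 1216 CPM there, 1225 to 1646 CPM in the Phlpp2 KO and 1028 to 1130 CPM in the Phlpp1/2 KO, against 1098 to 1455 CPM in WT. Of these markers Pi16 had 0 counts in Phlpp1 KO 1, and the others were detected in every library. The macrophage, skeletal muscle, osteoblast, tendon and smooth muscle markers gave 0 calls against WT as well. In the Phlpp1 KO their medians were 0.15, −0.65 (5 genes tested), −0.45 (3 genes tested), −0.14 and 0.11 in the same order. A median below 0 there was thus not particular to the articular genes. The part of such cells in the values of Prg4, Clu and Abi3bp was not tested.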

How the data were processed

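Bulk RNA sequencing was analysed from 12 samples. The deposited table holds raw, unscaled counts for each gene. The submitters' processing notes name bcl2fastq 2.17, STAR 2.5.2b and featureCounts of Subread 1.5.2 and the mm10 build. Not given in the sources used here are the strand setting, the annotation release and how multi-mapping reads were handled. Rows with no symbol numbered 174 and held 0.00419% of the counts. Positions and exon lengths came from GENCODE vM21 of the same build.

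Counts were fitted with edgeR 4.0.16 in R 4.3.3. The low-count filter left 16565 of 49315 genes, and TMM scaling was used for the fit and for CPM. All 12 libraries entered 1 model with genotype as its term (8 residual degrees of freedom), tested with the robust quasi-likelihood test, with an adjusted p under 0.05 (Benjamini-Hochberg) as a call. SE is the log2 fold change over the square root of the F statistic. The procedure was tested on simulated counts for the Phlpp1 KO against WT, with 50 genes changed at each fold. It recovered 14% of 1.25-fold, 40% of 1.5-fold, 84% of 2-fold and 88% of 4-fold changes, with 6 false among 119 calls. Changes of 1.5-fold or less were thus mostly missed, and the absence of a call does not show the absence of such a change. Alternatives were DESeq2 1.42.0, RLE scaling, no filter, only the 6 compared libraries, a replicate block, each library left out, and both low-Xist libraries left out. Overlaps and copies of members were searched in the annotation and with BLAST+ 2.17.0 (95% identity or more across 150 bases or more).

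The members and the gene lists were chosen with earlier results of these data known. Named genes were the 9 members, called genes of the lists that were printed, and from a list up to 3 genes with the smallest p against WT and a mean of at least 1 CPM. Genes like a member were the 3 with the highest r. No identical libraries were found among 66 pairs.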

Additional observations from a re-analysis of the deposited data

How the results depend on the processing

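Of the counts of called members, 1 changed with the processing: DESeq2 called 1 gene, Prg4, in the Phlpp1 KO against WT, where edgeR called 0. The count was 0 in the other comparisons and alternatives, including each left-out library (0 to 0). Of the 36 pairs tested for correlation, 3 passed over all libraries, 1 (Erg and Vit, not among the 3) with the 2 libraries farthest from the median left out, and 3 for deviations from genotype means, of which Cilp2 and Vit was shared. Shallow genes limit precision: Vit and Tppp3 rest on 26 to 120 and 33 to 74 counts.

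The numbers of the replicates are not stated to mark a litter or batch. Same-numbered samples deviated together with r from −0.16 to 0.30, above 0.1 in 4 of 18 pairs, so the samples were not treated as paired. With the replicate block 0 members were called, and calls over all genes were 245 in the Phlpp1 KO against 89, 84 in the Phlpp2 KO against 20, and 308 for the interaction against 8.

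Calls over all genes in the Phlpp1 KO against WT were 89, against 998 with DESeq2, 461 with no filter, 1163 with the 6 compared libraries, 18 without both low-Xist libraries and 16 to 57 with 1 library left out. In the Phlpp2 KO they were 20, against 316 with DESeq2, 110 with no filter and 9 to 22 with 1 library left out. In the Phlpp1/2 KO they were 39, against 160 with DESeq2, 102 with no filter and 18 to 34 with 1 library left out. Between the Phlpp1/2 KO and the Phlpp1 KO they were 2, against 20, 14 and 2 to 4 (1 with the 6 compared libraries), and between the Phlpp1/2 KO and the Phlpp2 KO 12, against 39, 32 and 4 to 132 (3 with the 6 compared libraries and 3 without both low-Xist libraries). For the interaction they were 8, against 635, 183 and 5 to 1196 (4 without both low-Xist libraries). The counts of 132 and 1196 came without Phlpp1/2 KO 3, which also left 34 calls in the Phlpp1/2 KO against WT, and without Phlpp2 KO 2 the interaction gave 71. In the Phlpp1 KO against WT the lowest count, 16, came without WT 2, in the Phlpp2 KO 9 came without WT 2 or Phlpp2 KO 3, and in the Phlpp1/2 KO 18 came without WT 3. The share of higher calls in the Phlpp1 KO was 35 of 89 with edgeR and 611 of 998 with DESeq2.

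Of 693 log2 fold changes of members under alternatives, 632 kept their direction and side of the threshold, 1 became a call and 60 changed sign; the cause was not tested. The main fit had called no member, so no change of sign could involve a call. Without both low-Xist libraries, Cilp was 0.0336 and Tppp3 0.0850 in the Phlpp1 KO, and Cilp −0.10 in the Phlpp1/2 KO against WT. Against the Phlpp1 KO, the Phlpp1/2 KO then had Cilp −0.14, Cilp2 −0.13, Clu −0.0121, Tppp3 −0.0620 and Vit −0.22, and the interaction of Abi3bp was −0.20. With the replicate block Cilp was 0.0347 in the Phlpp1 KO and Erg 0.00126 between the Phlpp1/2 KO and the Phlpp1 KO, and with no filter that Erg value was 0.00131.

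Leaving out 1 library at a time turned the sign of these members. In the Phlpp1 KO against WT Cilp ran from −0.42 to 0.52, Tppp3 ran from −0.28 to 0.20 and Erg ran from −0.25 to 0.0306. In the Phlpp2 KO against WT Erg ran from −0.25 to 0.0681, Cilp ran from −0.71 to 0.28, Cilp2 ran from −0.0309 to 0.43, Vit ran from −0.00147 to 0.63 and Prg4 ran from −0.0439 to 0.22. In the Phlpp1/2 KO against WT Cilp ran from −0.33 to 0.62, Abi3bp ran from −0.20 to 0.11, Tppp3 ran from −0.13 to 0.35 and Erg ran from −0.26 to 0.0298. Between the Phlpp1/2 KO and the Phlpp1 KO Erg ran from −0.0854 to 0.0904, Tppp3 ran from −0.0531 to 0.27, Cilp ran from −0.0769 to 0.37, Cilp2 ran from −0.0491 to 0.26, Vit ran from −0.14 to 0.21 and Creb5 ran from −0.13 to 0.00970. Between the Phlpp1/2 KO and the Phlpp2 KO Cilp ran from −0.0195 to 0.76, Clu ran from −0.17 to 0.12 and Erg ran from −0.18 to 0.14. For the interaction Abi3bp ran from −0.13 to 0.52, Cilp2 ran from −0.34 to 0.13, Erg ran from −0.0691 to 0.25, Vit ran from −0.56 to 0.0716 and Cilp ran from −0.18 to 0.80.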
